A study of Mus musculus with 6 samples.

Results

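Dio2 and Slco1c1 are 2 genes that act one after the other in the supply of thyroid hormone to the brain, and both were among the 1375 genes of the deposited list, which holds genes with a higher mean level in the responder group. They were taken from the table by their gene symbols, and each symbol matched 1 row (2 of 1375 genes). The table itself had been selected: the authors' deposited p-value was below 0.05 and the direction was the same in all 1375 genes. Both genes were thus selected on the FPKM difference and the p-value of the contrast described here, and their differences between groups are given as a description with no test.

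Prefrontal cortex came from 6 male C57BL/6J mice, an inbred strain, of which 3 were nonresponders and 3 responders by the novelty suppressed feeding test and the forced swimming test. All 6 had received ketamine, a rapidly acting antidepressant that blocks NMDA receptors, at an intraperitoneal dose of 10 mg/kg given 24 hours earlier, so no untreated mouse is among them. They were group-housed siblings with no genetic manipulation in the labels, and no age is given there. The tissue held every cell type of the region, so a change in the number of cells of a type and in RNA per cell cannot be told apart. Each library is called here by its mouse, numbered as in the sample titles. The labels give all libraries the same batch number. Responder mouse 3 stood apart over the listed genes, with the highest value of the 6 libraries in 87.6% of them, so the main differences are given with and without it.

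Thyroxine (T4), the main hormone released by the thyroid, binds receptors weakly and has to be converted to triiodothyronine (T3), the active form. Slco1c1 encodes OATP1C1, an organic anion transporter with high affinity for T4 that is found in brain capillary endothelium and choroid plexus and, in rodents, in astrocytes. Dio2 encodes the type 2 deiodinase, a selenoprotein of the endoplasmic reticulum membrane that removes an iodine from T4 to give T3. In the brain it is made mainly by astrocytes and, in the hypothalamus, by tanycytes, and T3 made there reaches the nuclear receptors of neighbouring neurons. Dio3 encodes the deiodinase that inactivates both hormones and is found mostly in neurons.

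By the mm10 positions of the table, Dio2 (ENSMUSG00000007682) is a protein coding gene of the minus strand of chromosome 12, spanning 90724552 to 90738438. Slco1c1 (ENSMUSG00000030235) is a protein coding gene of the plus strand of chromosome 6, spanning 141524368 to 141570177. Both positions are the same in GENCODE release M21. There the 1 Dio2 transcript has 2 exons, a coding length of 798 bases and a 3' untranslated region of 4863 bases. The longest coding transcript of Slco1c1 has 15 exons and 2145 coding bases in 3178. The first 238 bases of Dio2, as the table places it, overlap Gm26512, annotated as a noncoding gene of a bidirectional promoter on the other strand. The strand setting of the counting is not given in the sources used here, so reads of both genes in that overlap cannot be told apart; Gm26512 is outside the table.

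Both genes were listed with the same direction, as were all 1375 genes of the list. The promoter windows of both are shown because transcription of Dio2 is known to respond to cAMP. Each runs from 250 bases before to 50 bases after the RefSeq start of the gene, in build GRCm38.p6, 5' to 3' on the strand of the gene. The Dio2 window is chr12:90738989-90739288 on the minus strand and the Slco1c1 window chr6:141524104-141524403 on the plus strand. Capitals mark the letters of the cAMP response element (TGACGTCA), the TATA box (TATAAA) and the E-box (CACGTG), each searched on both strands.
Dio2: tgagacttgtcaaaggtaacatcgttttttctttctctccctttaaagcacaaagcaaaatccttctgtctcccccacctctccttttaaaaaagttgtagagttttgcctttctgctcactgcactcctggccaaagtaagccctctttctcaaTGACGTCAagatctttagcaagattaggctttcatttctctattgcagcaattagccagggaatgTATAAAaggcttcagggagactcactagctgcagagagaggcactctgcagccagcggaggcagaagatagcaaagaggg
Slco1c1: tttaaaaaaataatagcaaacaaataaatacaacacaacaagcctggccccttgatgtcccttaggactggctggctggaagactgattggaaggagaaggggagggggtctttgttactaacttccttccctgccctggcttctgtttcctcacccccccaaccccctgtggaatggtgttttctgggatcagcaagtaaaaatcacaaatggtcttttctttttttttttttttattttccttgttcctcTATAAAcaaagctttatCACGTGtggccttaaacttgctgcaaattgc
The RefSeq start of Dio2 lies 600 bases upstream of the start in the table, and that of Slco1c1 14 bases upstream.

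In the Dio2 window the element TGACGTCA began at position -95 and TATAAA at -30, counted from the RefSeq start. In the Slco1c1 window TATAAA began at +3 and CACGTG at +20, both after the RefSeq start, and TGACGTCA was not in these letters. Over all 32851 RefSeq promoter windows of this length, 1.79% held TGACGTCA, 13.6% TATAAA and 7.15% CACGTG. Among the 1237 windows of listed genes these shares were 3.56%, 8.97% and 9.78%. A pair of AGGTCA sites spaced by 4 bases (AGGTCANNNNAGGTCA, a form of thyroid hormone response element) was in neither window and in 0.0152% of all windows. These matches describe letters, not bound sites.

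Dio2 stood at 13.4, 12.1 and 12.8 FPKM (fragments per kilobase of gene, scaled by 1 number of the authors for each library) in nonresponder mice 1, 2 and 3. In responder mice 1, 2 and 3 it stood at 24.5, 18.8 and 17.1 FPKM. All responders lay above all nonresponders, as in 73.5% of all listed genes, and responder mouse 1 was the highest. The group means were 12.8 ± 0.640 FPKM among nonresponders and 20.1 ± 3.90 FPKM among responders (SD; n = 3 each), a 1.58-fold difference that was 1.69-fold without responder mouse 3. The gap of 7.36 FPKM between the means exceeded the SD of either group, which the selection of the table on this same contrast favours. In the authors' deposited table, which chose the gene, its p-value was 6.74e-05 and its adjusted p-value 0.0233, the 12th smallest p-value of the list. At an adjusted p-value of 0.05, 1.38% of the listed genes passed in that table.

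These values rested on 1213 to 2617 Dio2 reads per library. The exact Poisson 95% interval for counting error ran from 23.6 to 25.5 FPKM in responder mouse 1, from 16.3 to 18.0 FPKM in mouse 3 and from 12.7 to 14.1 FPKM in the highest nonresponder. Such intervals cover counting error alone, and they did not overlap between the groups. How many other listed genes share this was not counted, but the FPKM values alone separated the groups in 73.5% of all listed genes. Dio2 had also been selected on the same contrast.

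Slco1c1 stood at 7.55, 6.57 and 6.30 FPKM in nonresponder mice 1, 2 and 3, and at 9.01, 7.13 and 12.4 FPKM in responder mice 1, 2 and 3. The groups overlapped, because responder mouse 2 lay below nonresponder mouse 1, and responder mouse 3 was the highest library. The means were 6.81 ± 0.654 and 9.53 ± 2.70 FPKM (SD; n = 3 each), a 1.40-fold difference that was about the size of the SD of the responders. In the authors' deposited table the p-value of Slco1c1 was 0.0210 and its adjusted p-value 0.241, which did not pass. Without responder mouse 3 the fold was 1.19 and the log2 difference 0.25 in place of 0.49. Its 585 to 967 reads gave counting intervals of 6.57 to 7.72 FPKM in responder mouse 2 and 7.01 to 8.11 FPKM in nonresponder mouse 1, which overlap.

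**Figure D1:**
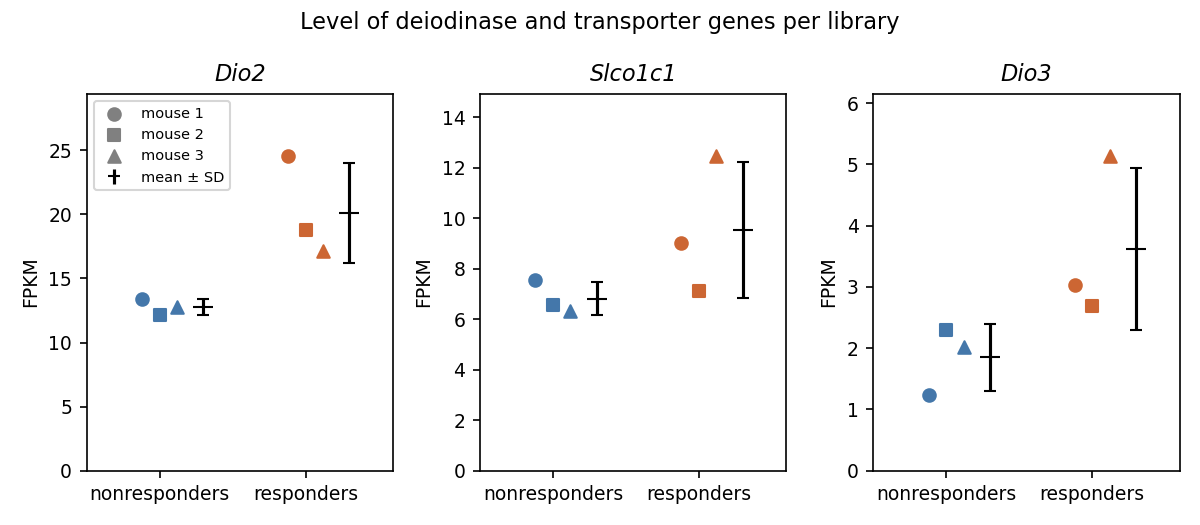
FPKM of Dio2, Slco1c1 and Dio3 in each library (points, shaped by mouse number) with the group mean ± SD (black, n = 3 per group), on axes that start at 0. Dio2 separated the groups with responder mouse 1 highest at 24.5 FPKM, whereas Slco1c1 overlapped and had its highest value, 12.4 FPKM, in responder mouse 3.

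Per kilobase of the gene length in the table, Dio2 was the more abundant of both genes in every library. The ratio of Dio2 to Slco1c1 FPKM was 1.78, 1.85 and 2.02 in nonresponder mice 1, 2 and 3 and 2.72, 2.63 and 1.38 in responder mice 1, 2 and 3. Responder mice 1 and 2 lay above the nonresponders and mouse 3 below them. The means were 1.88 ± 0.125 and 2.24 ± 0.754 (SD; n = 3 each), a difference smaller than the SD of the responders. The ratio depends on the length used: the table gives 5815 bases for Dio2 and 5186 for Slco1c1, more than its longest coding transcript. With the transcript length of 3178 bases for Slco1c1, chosen after seeing the data, the means were 1.15 ± 0.0769 and 1.37 ± 0.462, and in responder mouse 3 the ratio was 0.843, with Slco1c1 the more abundant.

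Responder mouse 3 stood apart over the list, and the members differed in how they followed it. Listed reads summed to 1989534 to 3486903 per library, highest there, while the authors' library scale ran from 14981505 to 19298950 reads and was lowest there. That library was the highest of the 6 in 1204 of 1375 listed genes (87.6%), Slco1c1 among them. Dio2 was 1 of the 82 genes with their highest value in responder mouse 1. The level of Dio2 in mouse 3 over the mean of mice 1 and 2 was -0.34 on the log2 scale, where 31 of 1373 listed genes had a lower value and the median gene had 0.70. Slco1c1 had 0.63, close to that median. In 44 listed genes responder mouse 1 was above mouse 2 and mouse 2 above mouse 3, and of these 35 had every responder above every nonresponder. Dio2 is 1 of these 35; over all 1375 genes, 73.5% had every responder above every nonresponder.

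**Figure D2:**
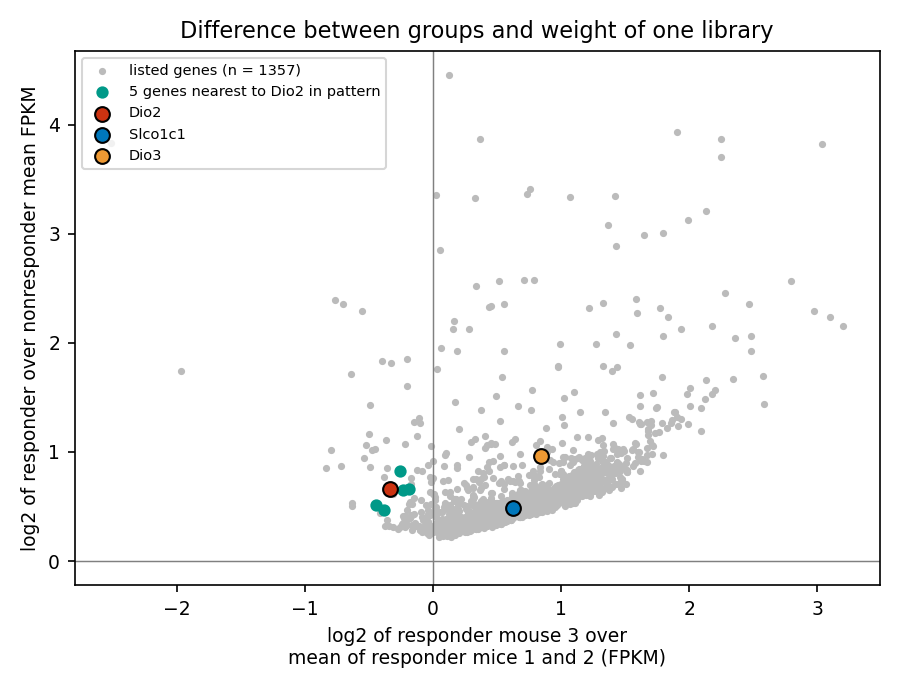
Each grey point is a listed gene, placed by the log2 ratio of responder mouse 3 to the mean of responder mice 1 and 2 (x axis) and by the log2 ratio of responder to nonresponder mean FPKM (y axis). Dio2, at -0.34 and 0.66, sits to the left of most genes beside the genes nearest to it in pattern, and Slco1c1, at 0.63 and 0.49, within the main cloud.

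The difference in Dio2 was larger without responder mouse 3. Its log2 difference went from 0.66 to 0.76, while the median over all listed genes went from 0.57 to 0.26. By size of difference Dio2 ranked 514th of 1358 genes with all 6 libraries and 131st without responder mouse 3. Slco1c1 ranked 884th and 769th.

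Set against the other listed genes of its own library, Dio2 gave another picture in responder mouse 3. These genes were selected as higher in responders, so setting a gene against them lowers its responder values by construction. Relative to the nonresponder mean, Dio2 stood at 0.94, 0.55 and 0.42 on the log2 scale in responder mice 1, 2 and 3. The median of all listed genes there was 0.23, 0.31 and 1.02. The difference of Dio2 from that median was 0.72 and 0.24 in mice 1 and 2 and -0.59 in mouse 3. For Slco1c1 the same differences were 0.18, -0.24 and -0.15. In CPM computed over the listed reads alone, Dio2 stood at 610 to 645 among nonresponders and at 1062, 734 and 428 in responder mice 1, 2 and 3, so that the groups overlapped on this scale. The log2 difference was then 0.25 for Dio2 and -0.021 for Slco1c1, against 0.039 for the median listed gene, so the direction of Slco1c1 turned.

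**Figure D3:**
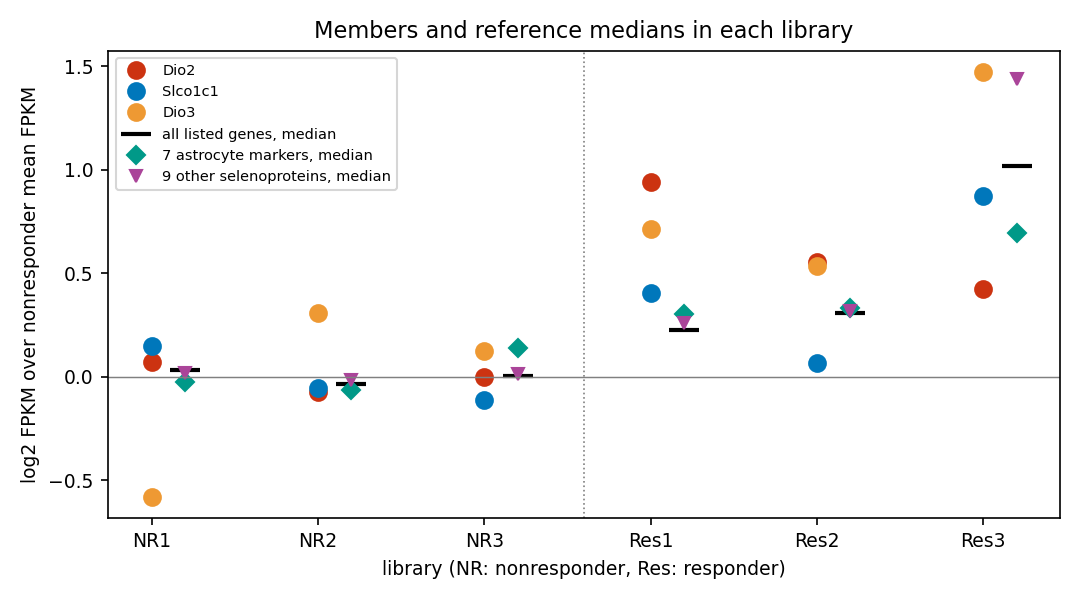
Log2 FPKM over the nonresponder mean FPKM for Dio2, Slco1c1 and Dio3 (large points) in each library, with the medians of all listed genes, of the listed astrocyte markers and of the other listed selenoproteins (small marks). Dio2 was above all 3 medians in responder mice 1 and 2 and below them in mouse 3, and on this FPKM scale Slco1c1 lay below the median of listed genes in mice 2 and 3.

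The other deiodinase gene of the table was Dio3, the inactivating enzyme. It stood at 1.24, 2.29 and 2.02 FPKM in nonresponder mice 1, 2 and 3, and at 3.03, 2.68 and 5.13 FPKM in responder mice 1, 2 and 3. All responders lay above all nonresponders, as in 73.5% of all listed genes. The means were 1.85 ± 0.547 and 3.62 ± 1.32 FPKM (SD; n = 3 each), a 1.95-fold difference on 47 to 156 reads per library. It did not pass in the authors' deposited table, where its adjusted p-value was 0.155, and without responder mouse 3 its fold was 1.54. The ratio of Dio2 to Dio3 FPKM was 10.8, 5.29 and 6.32 among nonresponders and 8.08, 6.99 and 3.34 among responders, in the order of the mice. These ratios overlapped between groups, with means of 7.48 ± 2.94 and 6.14 ± 2.49 (SD; n = 3 each).

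Few other genes of the thyroid hormone system were in the table. Of 44 genes in 5 lists (deiodinases, transporters, binding proteins, receptors with cofactors, and hormone-responsive genes), 5 were in it, and Dio2 alone passed in the authors' deposited table. Of 3 deiodinases 2 were listed, of the 8 genes in the transporter list Slco1c1 alone, and of 4 binding proteins and 14 receptor and cofactor genes none. Slco3a1, given below with the Slco family, was not in that transporter list. The receptors Thra and Thrb thus have no value here. A gene outside the table may have been lower among responders or may not have met the p-value of the table.

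Of 15 genes that respond to thyroid hormone in brain or liver, Thrsp and Pvalb were in the table, and neither passed in the authors' deposited table, where their adjusted p-values were 0.157 and 0.325. Thrsp, a regulator of lipid synthesis, stood at 3.09 to 5.14 FPKM among nonresponders and 4.96 to 9.36 FPKM among responders, with overlap. Pvalb, the calcium-binding protein parvalbumin of fast-spiking interneurons, stood at 10.2 to 17.0 FPKM among nonresponders, at 14.9 and 12.1 FPKM in responder mice 1 and 2 and at 36.1 FPKM in mouse 3. Its log2 difference of 0.71 was 0.070 without responder mouse 3. Klf9 and Hr, direct targets of the receptors, have no value here.

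Turnover of the deiodinase 2 protein runs through ubiquitination, which T4 accelerates. Of 10 genes of that step, Eloc and Rbx1 were in the table, subunits of cullin ubiquitin ligases that serve many substrates. Eloc stood at 29.4 to 30.8 FPKM among nonresponders, 29.9 and 34.8 FPKM in responder mice 1 and 2 and 66.8 FPKM in mouse 3. Rbx1 stood at 15.5 to 16.8, at 16.5 and 19.1, and at 36.7 FPKM in the same libraries. The groups overlapped in both genes, and neither passed in the authors' deposited table. Both were highest in responder mouse 3, as were 87.6% of all listed genes. The median of their log2 differences, 0.56, was 0.12 without that library. The median over all listed genes also fell, from 0.57 to 0.26, while Dio2 rose from 0.66 to 0.76.

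Of 17 genes of beta-adrenergic and cAMP signalling, which raises Dio2 transcription in several tissues, Adcy8, Prkar1a and Crem were in the table and 0 passed in the authors' deposited table. Adcy8, a calcium-stimulated adenylyl cyclase, stood at 2.65 to 3.24 FPKM among nonresponders and at 4.05, 3.77 and 3.68 FPKM in responder mice 1, 2 and 3. Its order among responders was that of Dio2, with a log2 difference of 0.40, or 0.43 without responder mouse 3. Prkar1a, a regulatory subunit of protein kinase A, was 1.16-fold higher. Crem, a transcription factor that binds cAMP response elements, was 1.49-fold higher and 1.13-fold higher without responder mouse 3. Every responder was above every nonresponder in these 3 genes, against 73.5% of all listed genes.

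The deiodinases are selenoproteins, proteins that carry selenocysteine at a UGA codon that is read through instead of ending translation. The coding sequence of Dio2 in GENCODE release M21 has 266 codons, with in-frame TGA at codons 130 and 263, both annotated as selenocysteine. They are shown with the coding bases around them, with TGA in capitals.
Dio2 codon 130: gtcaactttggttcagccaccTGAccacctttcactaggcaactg
Dio2 codon 263: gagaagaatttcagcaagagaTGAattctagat
Of 24 selenoprotein genes, 10 were in the table. Dio2 was the 1 gene of these to pass in the authors' deposited table, against 1.38% of all listed genes. In all 10 every responder was above every nonresponder, as in 73.5% of all listed genes. Of 10 genes of selenoprotein synthesis and selenium supply, none was in the table.

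Of the 10 listed selenoproteins 8 were highest in responder mouse 3, a share close to the 87.6% of all listed genes, and the exceptions were Dio2 and Gpx3. Selenok, a protein of the ER membrane, stood at 34.8 to 38.8 FPKM among nonresponders, 46.2 and 43.7 FPKM in responder mice 1 and 2 and 105 FPKM in mouse 3. Selenos, which acts in removing misfolded proteins from the ER, stood at 11.2 to 11.7, at 16.3 and 15.1, and at 33.4 FPKM in the same libraries. Gpx4, which reduces lipid peroxides, stood at 78.8 to 86.9 FPKM among nonresponders and at 92.6, 102 and 226 FPKM in responder mice 1, 2 and 3. Selenop, which carries selenium between and within tissues, stood at 38.4 to 39.6 FPKM among nonresponders and at 42.4, 52.1 and 79.3 FPKM in the responders. The median log2 difference of all 10 was 0.70, against 0.57 for all listed genes, and 0.32 against 0.26 without responder mouse 3. Of the 10, Dio2 had the highest value without that library, at 0.76, followed by Dio3 at 0.63 and Gpx3 at 0.48.

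**Figure D4:**
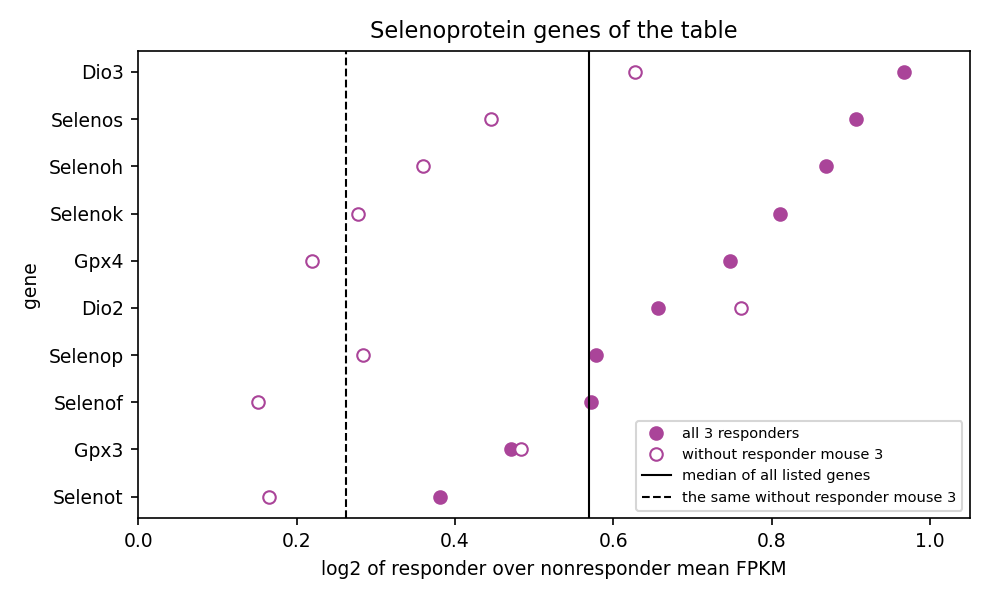
Log2 ratio of responder to nonresponder mean FPKM for the selenoprotein genes of the table, with all 3 responders (filled) and without responder mouse 3 (open), beside the medians of all listed genes (solid and dashed lines, 0.57 and 0.26). Dio2 moved to the right without that library, from 0.66 to 0.76, Gpx3 from 0.47 to 0.48, and the others moved to the left.

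Slco1c1 lies at one end of a cluster of Slco1 transporter genes. Of 6 such genes within 1 Mb on chromosome 6 in GENCODE release M21, Slco1c1 alone was in the table. Of 15 genes of the whole Slco family, the other listed one was Slco3a1, a transporter of prostaglandins and T4 that is widely expressed in brain. It stood at 3.40 to 4.13 FPKM among nonresponders and at 5.61, 4.84 and 4.07 FPKM in responder mice 1, 2 and 3. The groups overlapped, and its adjusted p-value, from the authors' deposited table, was 0.273. Like Dio2, it was highest in responder mouse 1, and its log2 difference of 0.37 was 0.48 without responder mouse 3.

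Since Dio2 is made by astrocytes and Slco1c1 by capillary endothelium and astrocytes, markers of these cells are given beside them. Of 18 astrocyte markers 7 were in the table (Gjb6, Aqp4, Gfap, Aldoc, Acsbg1, Mlc1 and Glul), and Gjb6 alone passed in the authors' deposited table, against 1.38% of all listed genes. In all 7 every responder was above every nonresponder, as in 73.5% of all listed genes, and 6 were highest in responder mouse 3, a share close to the 87.6% of all listed genes. Their summed level was 592 to 655 FPKM among nonresponders and 760, 788 and 838 FPKM in responder mice 1, 2 and 3. The median of their log2 differences was 0.47, or 0.34 without responder mouse 3. Gjb6, the gap junction protein connexin 30, stood at 10.4 to 15.5 FPKM among nonresponders and at 17.9, 20.8 and 24.7 FPKM in responder mice 1, 2 and 3, the reverse of the order of Dio2. Glul, glutamine synthetase, stood at 341 to 371 FPKM among nonresponders and 413 to 447 FPKM among responders.

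Per 100 FPKM of these astrocyte markers, of which Glul and Aldoc made up the larger part, Dio2 stood at 2.18, 2.05 and 1.95 FPKM among nonresponders and at 3.23, 2.38 and 2.04 FPKM among responders, in the order of the mice. Responder mouse 3 then lay within the range of the nonresponders, and mice 1 and 2 above it. The means were 2.06 ± 0.115 and 2.55 ± 0.611 (SD; n = 3 each), a difference smaller than the SD of the responders. Slco1c1 stood at 0.963 to 1.22 FPKM on the same scale among nonresponders and at 1.19, 0.904 and 1.48 FPKM among responders, with overlap. These markers are themselves listed genes, selected as higher in responders, so dividing by them lowers the responder values by construction. The part of astrocyte content in the difference of either gene was not tested.

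Of 20 brain endothelial markers, Bsg (basigin) alone was in the table, a glycoprotein that is abundant in brain capillaries and also made by other cells. It stood at 139 to 153 FPKM among nonresponders and at 167, 154 and 241 FPKM among responders, and its adjusted p-value, from the authors' deposited table, was 0.290. Its responders stood in the same order as those of Slco1c1, with mouse 3 highest, as in 87.6% of all listed genes, and mouse 2 lowest. How many listed genes share the full order was not counted. Defining endothelial markers such as Cldn5 and Pecam1 have no value here, and the part of endothelial content was not tested. None of 9 tanycyte markers and none of 12 pericyte and smooth muscle markers was in the table. Of 10 choroid plexus markers Kl alone was in it, at 0.256 to 0.474 FPKM among nonresponders and 0.525 to 0.538 FPKM among responders. Ttr, the T4 carrier that defines that tissue, has no value here. In Bsg and Kl every responder was above every nonresponder, as in 73.5% of all listed genes. Of 12 leptomeningeal markers 6 were in the table. Their summed level was 7.65 to 9.43 FPKM among nonresponders and 13.0 to 19.8 FPKM among responders, most of it from Igfbp2. Of 15 microglia markers 6 were in the table, with 80.8 to 91.7 and 104 to 207 FPKM. In each list 5 of the 6 had every responder above every nonresponder, against 73.5% of all listed genes. Likewise 5 of the 6 were highest in responder mouse 3, against 87.6%. The median log2 difference was 1.03 for the leptomeningeal and 0.63 for the microglia markers, against 0.57 for all listed genes. Without that library these were 0.96, 0.29 and 0.26. None of 10 oligodendrocyte and 12 neuron markers was in the table, so the labelled tissue could not be checked against them here.

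The genes most like each member over the 6 libraries were found by the root mean square difference of log2 FPKM, after subtracting the mean of each gene, among 1163 genes with at least 50 reads in every library. The genes nearest to Dio2 were Pdia4, Creld2, Sdf2l1, Homer1 and Inhba, at 0.0780 to 0.117 on the log2 scale, compared with a median of 0.392 over all other genes. Pdia4 is a protein disulfide isomerase, and Creld2 and Sdf2l1 are ER proteins induced by unfolded proteins. Homer1 is a postsynaptic scaffold protein whose short form is induced by neuronal activity, and Inhba, the beta A subunit of activin, is also induced by activity. Pdia4 stood at 14.8, 12.4 and 14.3 FPKM among nonresponders and at 24.4, 21.4 and 19.4 FPKM among responders, in the order of the mice. Homer1 stood at 23.3, 19.9 and 20.1 FPKM and at 34.6, 31.6 and 24.3 FPKM in the same libraries. All 5, like Dio2, were highest in responder mouse 1 and lowest among responders in mouse 3. Choosing them by likeness to Dio2 favours this order, which 44 of all 1375 listed genes had among the responders.

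The genes nearest to Slco1c1 were Pkig, Pmvk, Serp2, Phospho2 and Polr2c, at 0.0406 to 0.0521, compared with a median of 0.217 over all other genes. Pkig is an inhibitor of protein kinase A, Pmvk an enzyme of cholesterol synthesis and Polr2c a subunit of RNA polymerase II. Pkig stood at 11.2, 10.2 and 10.1 FPKM among nonresponders and at 13.5, 11.3 and 18.8 FPKM among responders. Its responder mouse 2 lay close to nonresponder mouse 1, as in Slco1c1. Dio2 and Slco1c1 were 0.339 apart. Slco1c1 was the 391st gene from Dio2, and Dio2 the 1050th from Slco1c1, of 1162 others. The likeness is a description over 6 libraries that share their scale and the selection of the table.

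The promoter windows of both groups of 5 genes were searched with the same letters as those of the members. TGACGTCA, which the Dio2 window holds, was in none of the windows of the 5 genes nearest to Dio2, and among those nearest to Slco1c1 it was in the window of Phospho2, at -162. Its shorter form TGACG, which overlaps it, was also in 1 of the 2 windows of Homer1, at 3 positions, and in 1 of the 3 windows of Pkig, at -211. Of all windows 20.8% hold TGACG, and of those of listed genes 33.8%. The ER stress response element (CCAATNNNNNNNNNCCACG) was in the window of Creld2, in none of the other 9 genes and in neither member. Of all windows 0.119% hold it, and of those of listed genes 0.647%.

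**Figure D5:**
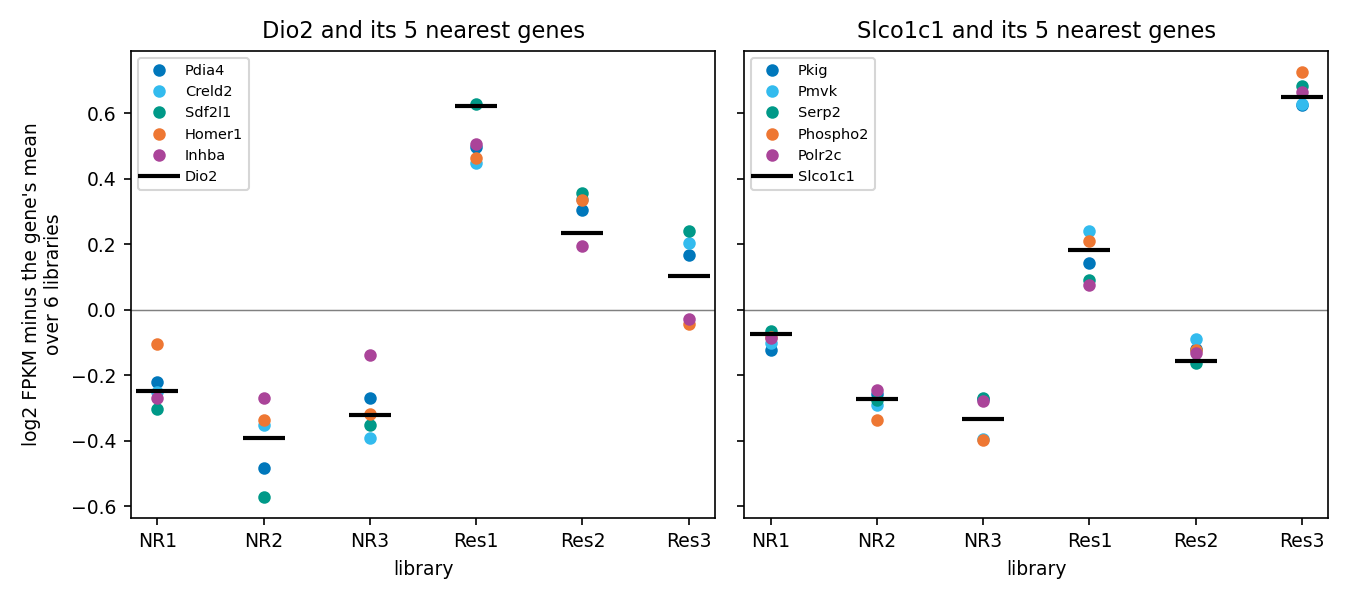
Log2 FPKM minus the mean of each gene over the 6 libraries, for Dio2 (left) and Slco1c1 (right, black bars) and the genes nearest to each (coloured points). The Dio2 group was highest in responder mouse 1, and the Slco1c1 group was highest in responder mouse 3 with responder mouse 2 near the nonresponders.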

How the data were processed

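Gene expression was measured by polyA RNA sequencing in prefrontal cortex of 6 mice, 3 per group, with RNA taken from each mouse separately per the labels. The deposited table gives whole read counts per gene and library and the authors' FPKM values, per the file headers. Each FPKM equalled the count over the deposited gene length and over 1 scale number per library. The log2 fold change deposited by the authors divides nonresponders by responders, and all its values were below 0. The p-value and adjusted p-value were also deposited, with their test not given in the sources used here, nor the aligner and counter. The genome build mm10 comes from the submitters' processing notes. The 6 columns of per-sample values that match no label were not used.

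Groups came from the sample titles. Differences are log2 ratios of group mean FPKM, responders over nonresponders, with no pseudocount. No count test was run, since the table and both genes had been selected on the same contrast, and genes with lower values in responders were not analysed here. The depth of each library over all genes is unknown. Counting intervals are exact Poisson 95% intervals. The genes, the 10 gene lists and the 9 marker lists were chosen with earlier results of these data known, and 1 gene of the transporter list is not reported here. Genes were named if they were members, listed genes of a fixed list, astrocyte or endothelial markers, or among the 5 nearest to a member. Kl and Igfbp2 were named after their values were seen. Alternatives were other library scales and group summaries, a pseudocount of 1 FPKM, a filter at 1 FPKM, and leaving out each library. Promoter windows are RefSeq's, with both members matched, and transcripts GENCODE's. Calculations used Python 3.11.15, pandas 2.3.3 and scipy 1.17.1, and were tested on simulated data.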

Additional observations from a re-analysis of the deposited data

How the results depend on the processing

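The log2 difference of Dio2, 0.66, stayed above 0 in all 11 alternatives, and that of Slco1c1, 0.49, in 9 of 11. In CPM over the listed reads they were 0.25 for Dio2 and -0.021 for Slco1c1, and with median-of-ratios size factors over the listed genes 0.22 and -0.051. By construction these scales set each library against genes selected as higher in responders, and they moved the median of all listed genes from 0.57 to 0.039 and 0.012. The count of listed genes with every responder above every nonresponder was 1010 by FPKM, 111 and 97 on these scales and 913 with a mean of at least 1 FPKM. Leaving out each library in turn gave 0.49 to 0.76 for Dio2, 0.25 to 0.66 for Slco1c1 and 1019 to 1206 for that count. The log2 ratio of Dio2 to Slco1c1 was 0.19 higher in responders, 0.017 to 0.51 when each library was left out in turn. The lowest value left out responder replicate 1 (0.017; 0.041 leaving out replicate 2), the highest left out replicate 3. No paired analysis was possible because no label ties a nonresponder to a responder beyond the number in its title, and no test was run. The number of mice, and reads for Dio3 (47 to 156 per library), limit the precision.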
